A study of Mus musculus with 3 samples.

Results

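The genes described here encode subunits of the mitochondrial respiratory chain and of ATP synthase. They were chosen by name: a gene was a member when its single symbol in the platform annotation began with *Nduf* followed by a, b, c, s or v and a digit, with *Uqcr*, with *Cox4* to *Cox8* or with *Atp5*, was *Sdha*, *Sdhb*, *Sdhc* or *Sdhd*, or was *Cyc1* or *Cycs*. This gave 83 of 18194 genes, 33 of complex I, 4 of complex II, 9 of complex III, 17 of complex IV, 17 of complex V and cytochrome c itself. *Cox7a2l*, a factor of supercomplex assembly, and *Ndufa4l2*, a relative of *Ndufa4*, matched by name and were kept apart, and *Ndufa4* was counted with complex IV, to which its protein belongs. The rule itself uses names and no measured value. The samples were kidneys of male C57BL/6J mice, 16 weeks old, each on 1 Affymetrix array. In 1 sample a kidney had been removed and nothing else is given ("uninephrectomy alone"); in 2 samples, the cardio-renal syndrome model, the abdominal aorta had been narrowed below the branching of both renal arteries and a kidney removed 2 weeks later. In all 3 samples the remaining kidney was taken 6 weeks after the removal, so every animal had lost a kidney. The series text also mentions sham operations, without saying which mice had them, and no label says whether a sample is RNA of 1 mouse. The comparison asks how expression in the remaining kidney differs when aortic banding precedes the loss of the other kidney.

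Complexes I and II pass electrons from NADH and succinate to ubiquinone, complex III passes them on to cytochrome c, and complex IV hands them to oxygen. Complexes I, III and IV pump protons across the inner membrane, and complex V, the ATP synthase, lets them flow back to make ATP. Tubule cells, above all those of the proximal tubule and the thick ascending limb, are rich in mitochondria because they pay for sodium reabsorption with ATP. The genes here are the nuclear ones; the subunits encoded by mitochondrial DNA have no named probe set and were not analysed here. Some subunits of complex IV exist as isoforms made in certain organs, such as heart and skeletal muscle, lung or testis.

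Values are MAS5 signals, and differences are on the scale log2(signal + 28.8), always cardio-renal minus uninephrectomy. Median signals of all probe sets were 100.1, 106 and 102 on the uninephrectomy array and cardio-renal arrays 1 and 2. At the bright end the arrays stood apart: the 99th percentile was 12227, 11419.6 and 12518, and the brightest probe set read 39782, 29674 and 40588. Cardio-renal array 1 also stood apart from both others in sex-biased kidney genes: the 7 measured male-biased genes had medians of -2.50 on array 1 and 0.029 on array 2. Because array 1 stands apart, results are given for each cardio-renal array, and a mean difference stands beside its signals or its values on both arrays. Of the 83 members, 78 passed the filter on low signals; *Ndufb4*, *Cox4i2*, *Cox7b2*, *Cox8b* and *Ndufa4l2* did not. With only 3 arrays the precision is low, and each ± is the SD of the differences of the 2 cardio-renal arrays, which share the single uninephrectomy array. An exact permutation of 1 array against 2 cannot give a one-sided p below 0.333.

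Most subunit genes of complexes I, III, IV and V gave a slightly lower signal on cardio-renal array 1 than on the uninephrectomy array and nearly the same signal on cardio-renal array 2, and no subunit gene passed the test. With limma and Benjamini-Hochberg adjustment 0 members were called, against 0.0% of all 11147 genes tested; at an unadjusted p under 0.05, limma passed 0 members and 2.51% of all genes. The lowest limma adjusted p among members was 0.9998. On array 1, 65 of 78 measured members lay below the uninephrectomy signal (83.3%), against 48.4% of all genes. On array 2 it was 26 (33.3%), against 50.7%. The commonest pattern, low on array 1 and slightly high on array 2, was that of 41 members (52.6%) and of 18.6% of all genes, and its opposite that of 2 members and 21.0% of all genes. The other 11 members above (14.1%, all genes 30.6%) and 24 below (30.8%, all genes 29.8%) lay on 1 side of the uninephrectomy signal on both arrays. Signals of array 1 were below those of array 2 in 66 members (84.6%), against 46.9% of all genes. Both this share and that of the commonest pattern were higher among bright genes. At a mean log2 value of at least 12, the pattern was that of 57.7% of 71 members and 39.3% of 1048 other genes. Array 1 was below array 2 in 90.1% and 69.8% of them. From 14 to 16 the pattern was that of 68.4% of members and 69.5% of other genes, and array 1 was below array 2 in 100% and 91.5%. From 13 to 14, the band with most members, the shares were further apart. The pattern was that of 59.5% of members and 48.1% of other genes there, and array 1 was below array 2 in 97.3% and 78.0%. From 12 to 13 the pattern was that of 40% and 31.2%, and array 1 was below array 2 in 60% and 63.1%.

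The differences were small. The members' median was -0.12 on array 1 and 0.027 on array 2, beside 0.0084 on array 1 and -0.0028 on array 2 over all genes tested. No measured member lay at least 0.32 on the log2 scale above the uninephrectomy signal on both arrays, where 3.05% of all genes did, or at least as far below on both, where 1.83% did. At 2-fold on both the share of all genes was 0.188%, and 0 members. On array 2 alone 0 members reached 0.32 below and 0 reached it above, against 7.5% and 6.62% of all genes. On array 1 the measured members ranged from -0.34 to 0.37, with 2 at or beyond that distance below and 2 above, against 8.31% and 11.2% of all genes. The summed signal of all 83 members was 993481 with uninephrectomy alone, 903172 on cardio-renal array 1 and 1009171 on array 2.

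**Figure D1:**
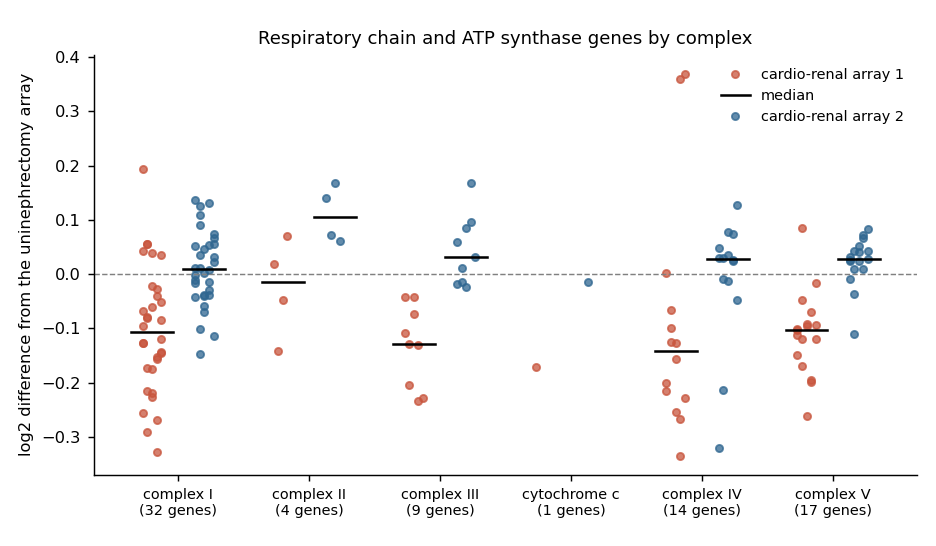
Log2 difference from the uninephrectomy array for each measured subunit gene, by complex, in cardio-renal array 1 (red) and array 2 (blue); points are genes, spread sideways for legibility, and bars are medians. In complexes I, III, IV and V the median of array 1 lies below 0, between -0.14 and -0.10, and that of array 2 lies between 0.0089 and 0.032; all 4 complex II genes lie above 0 in array 2.

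Among members with a mean log2 value of 12 or more, the median distance below the uninephrectomy signal on array 1 was larger in brighter bands. Among members with a mean log2 value of 14 to 16, all 19 were lower in array 1, with a median of -0.20; the 82 other genes of that band had a median of -0.20, and 77 of them were lower. From 13 to 14 the medians were -0.12 for 37 members and -0.10 for 318 other genes, and from 12 to 13 they were -0.028 for 15 members and -0.038 for 648 others. In array 2 the same bands gave 0.026, 0.024 and 0.032 for members and 0.033, 0.040 and 0.020 for other genes, from the brightest band down. In each of these bands the medians of members and of other genes lay close together on both arrays. The 5 dim members from 8 to 9 did not follow this order: their medians were -0.066 on array 1 and -0.15 on array 2, beside 0.049 and -0.011 for 2328 other genes, and *Ndufb1* (-0.17) and *Cox8c* (-0.13) among them were low on array 1. After quantile normalization, which gives all arrays the same distribution of signals, 42 of 78 members (53.8%) were lower in array 1, against 65 on the deposited scale. Of all genes, 50.4% were lower in array 1 after quantile normalization. The members' median in array 1 was then -0.014, and -0.023 after cyclic loess normalization, an alternative chosen after the data were seen. After cyclic loess normalization 60.3% of members were lower in array 1, against 50.9% of all genes.

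**Figure D2:**
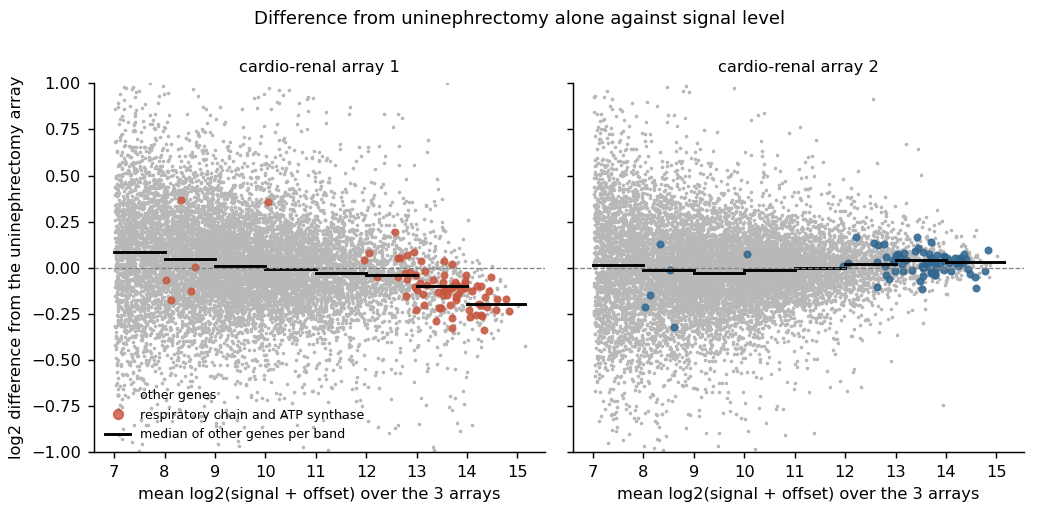
Log2 difference from the uninephrectomy array (vertical axis, shown to 1 either way, which leaves out 124 genes in array 1 and 48 in array 2) against the mean log2(signal + offset) of the 3 arrays, for other genes (grey) and the subunit genes (coloured), with black steps for the median of other genes in each band of signal. In array 1 the steps descend from 0.086 in the dimmest band to -0.20 in the brightest and most bright subunit genes lie around them; in array 2 both stay near 0.

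**Figure D3:**
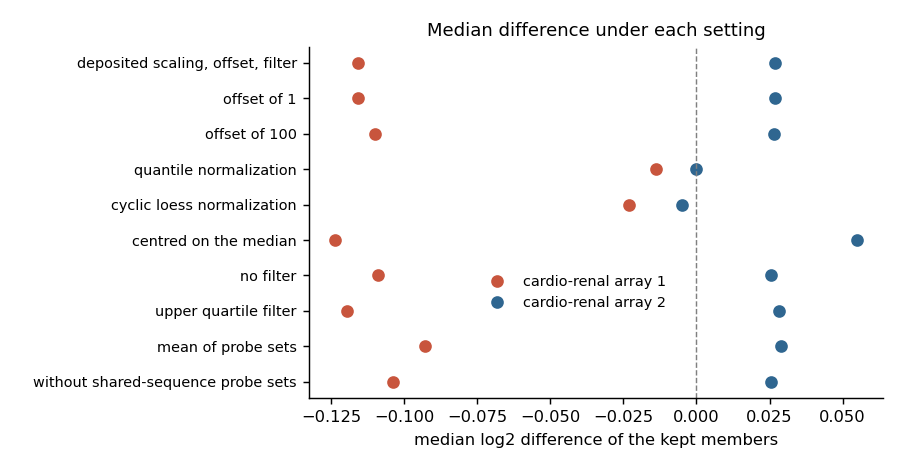
Median log2 difference of the measured subunit genes in each cardio-renal array (horizontal axis) under each processing setting (rows). The medians of array 1 lie between -0.12 and -0.093 except after quantile and cyclic loess normalization, where they are -0.014 and -0.023; those of array 2 lie between -0.0050 and 0.055.

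Promoters of 4 members are shown because these genes span the patterns: *Cox6a1* and *Cox7a2*, widely expressed isoforms low in array 1, *Cox7a1*, the heart-type partner of *Cox7a2*, and *Ndufb3*, higher in both arrays. Each is the 250 bases that end just before the gene's start, 5′ to 3′ on the gene's strand, from RefSeq on GRCm38.p6; capitals mark matches, on either strand, to motifs known from respiratory genes (NRF1 as GCATGCGC and ETS factors such as GABP as CCGGAAG, ERR as CAAGGTCA, YY1 as AAGATGG) or from promoters in general (the GC box GGGCGG and the TATA box TATAAA).
Cox6a1 (chr5:115348959-115349208, minus strand): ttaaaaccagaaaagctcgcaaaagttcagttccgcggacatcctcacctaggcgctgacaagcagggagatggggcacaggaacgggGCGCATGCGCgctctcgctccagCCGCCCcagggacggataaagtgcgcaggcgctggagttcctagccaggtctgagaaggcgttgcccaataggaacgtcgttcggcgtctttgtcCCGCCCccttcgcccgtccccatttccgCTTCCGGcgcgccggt
Cox7a2 (chr9:79759854-79760103, minus strand): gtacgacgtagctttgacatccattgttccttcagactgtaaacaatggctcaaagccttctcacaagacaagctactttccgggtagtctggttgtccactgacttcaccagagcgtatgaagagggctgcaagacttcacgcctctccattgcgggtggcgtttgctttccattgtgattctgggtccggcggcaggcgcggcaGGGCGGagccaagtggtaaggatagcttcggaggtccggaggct
Cox7a1 (chr7:30183921-30184170, plus strand): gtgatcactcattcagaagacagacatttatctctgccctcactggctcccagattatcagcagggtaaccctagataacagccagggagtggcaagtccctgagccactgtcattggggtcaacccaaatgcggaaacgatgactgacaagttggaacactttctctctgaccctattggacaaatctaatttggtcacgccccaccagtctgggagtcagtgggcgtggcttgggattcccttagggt
Ndufb3 (chr1:58586147-58586396, plus strand): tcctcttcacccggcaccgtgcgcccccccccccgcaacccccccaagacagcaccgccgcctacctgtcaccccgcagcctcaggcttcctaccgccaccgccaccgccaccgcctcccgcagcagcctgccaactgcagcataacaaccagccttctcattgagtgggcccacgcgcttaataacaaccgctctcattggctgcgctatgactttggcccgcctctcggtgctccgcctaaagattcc
In these windows *Cox6a1* held the NRF1 motif, which overlaps its own reverse complement there, an ETS motif and GC boxes, *Cox7a2* held a GC box, and *Cox7a1* and *Ndufb3* held none of the letters searched. RefSeq windows were found for 67 of 83 members, 72 windows in all, some genes having more than 1 start. The NRF1 motif was in 11.1% of member windows and 2.26% of all 32851 windows, the ETS motif in 16.7% and 6.91%, and the ERR motif in 4.17% and 1.33%. The YY1 motif was in 1.39% and 4.49%, the GC box in 34.7% and 32.7% and the TATA box in 11.1% and 12.4%. Members higher on both cardio-renal arrays had 10 windows, 1 with the NRF1 motif and 2 with the ETS motif; members lower in both had 22, 2 and 1. These counts are descriptions of letters in a window, with no test.

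Complex I, the NADH dehydrogenase, had 32 measured genes. Of these, 5 were higher (15.6%, all genes 30.6%) and 13 lower (40.6%, all genes 29.8%) on both cardio-renal arrays. Its medians were -0.11 on array 1 and 0.0089 on array 2, and -0.026 on array 1 and -0.016 on array 2 after quantile normalization. The genes of its catalytic core differed in direction. *Ndufv1*, which encodes the subunit that binds NADH and flavin, had signals of 8545, 8760.5 and 8884 in the uninephrectomy array and cardio-renal arrays 1 and 2 (0.046 ± 0.014, SD, n = 2), while its other probe sets read 8420.0, 7763 and 8444, and 9144, 8361 and 8107, so that probe sets of this gene differ in direction. *Ndufs1*, the large iron-sulphur subunit, stood at -0.028 and 0.13 in arrays 1 and 2, *Ndufv2*, the partner of *Ndufv1*, at -0.13 and -0.042 and *Ndufs3* at -0.084 and 0.074. *Ndufs7* and *Ndufs8*, whose proteins carry iron-sulphur clusters next to the ubiquinone site, stood at -0.061 and -0.040 and at -0.33 and -0.029. The other probe set of *Ndufs7* read 6174, 6377 and 6715, higher on both arrays. *Ndufs8* had signals of 14421, 11477 and 14135, which put array 1 at 79.6% of the uninephrectomy signal and array 2 at 98%. It was 1 of the 2 members at least 0.32 below on array 1, and stood at -0.21 there after quantile normalization. Another of its 6 probe sets read 4417, 4462 and 4639, higher on both arrays, and the rest were lower on array 1.

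Among the accessory subunits of complex I, *Ndufb3*, part of the membrane arm, whose promoter window held none of the motifs, had the highest signals relative to the uninephrectomy kidney, with signals of 5593, 6401 and 6153, a mean difference of 0.17 ± 0.040. Both cardio-renal signals lay above the uninephrectomy signal, also after quantile normalization (0.23 and 0.13). *Ndufs5* followed at 0.055 and 0.13, with signals of 6191, 6431 and 6754. At the other end, *Ndufb1* had signals of 272, 238 and 243 (-0.16 ± 0.019) from a dim probe set, *Ndufb8* of 12485, 11290.4 and 11528 (-0.13 ± 0.021) and *Ndufa6* of 12301, 10561 and 11722 (-0.14 ± 0.11). These 3 were lower in both arrays, but the second probe set of *Ndufb8* read 354, 417 and 381, higher in both. *Ndufv3* and *Ndufa10*, accessory subunits as well, differed most between the cardio-renal arrays among complex I genes: *Ndufv3* had signals of 11193, 9146 and 11923 and *Ndufa10* of 11345, 9764 and 12237, low in array 1 and high in array 2 in each case. The remaining accessory genes lay between -0.27 (*Ndufa13*) and 0.055 (*Ndufa5*) on array 1.

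Complex II, succinate dehydrogenase, was the complex with no gene below the uninephrectomy array in array 2, where 50.7% of all genes lay below. Its 4 genes lay there between 0.061 and 0.17, and its medians were -0.015 on array 1 and 0.11 on array 2. *Sdha*, the flavoprotein that oxidises succinate, had signals of 12876, 13047 and 14185, a mean difference of 0.079 ± 0.085. *Sdhb*, the iron-sulphur subunit, had signals of 14616, 13236 and 15362 (-0.036 ± 0.15), lower in array 1 and higher in array 2. The membrane anchors that hold the ubiquinone site were *Sdhc*, with signals of 4611, 4458 and 5181 (0.059 ± 0.15), and *Sdhd*, with 6916, 7264 and 7213 (0.066 ± 0.0071). The other probe set of *Sdhd* read 1973, 3365 and 2444, also above on both arrays, and with the mean of its probe sets *Sdhd* stood at 0.30, its largest value under any setting. By their brightest probe sets, *Sdha* and *Sdhd* lay above the uninephrectomy signal on each array, and *Sdhb* and *Sdhc* straddled it. The other probe set of *Sdhc* read 1454, 1650 and 1667, above it on both arrays. After quantile normalization the median of the 4 genes was 0.044 in array 1 and 0.077 in array 2, with *Sdha* at 0.15 and 0.12. Whether complex II differs from the other complexes was not tested, since genes are not replicates of a condition.

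In complex III, ubiquinol-cytochrome c reductase, all 9 genes were lower in array 1 (all genes 48.4%), 3 of them in array 2 too (33.3%, all genes 29.8%). The medians were -0.13 on array 1 and 0.032 on array 2, and -0.0030 on array 1 and -0.010 on array 2 after quantile normalization. *Cyc1*, which encodes the haem-bearing cytochrome c1, had signals of 13682, 12683 and 13516 (-0.063 ± 0.065). *Uqcrfs1*, the Rieske iron-sulphur protein, stood at -0.13 and 0.012, and the core proteins *Uqcrc1* and *Uqcrc2* at -0.23 and 0.032 and at -0.042 and 0.059. Among the small subunits, *Uqcr10* (signals 9511, 8254 and 9414) and *Uqcrh*, the acidic hinge protein (signals 14190.2, 13476 and 13948), were lower in both arrays, at -0.11 ± 0.13 and -0.050 ± 0.035, the latter at 0.056 and -0.043 on arrays 1 and 2 after quantile normalization. *Uqcrb* had signals of 29955, 25473 and 32037, 85% of the uninephrectomy value in array 1 and 107% in array 2. *Cycs*, the somatic cytochrome c that shuttles between complexes III and IV, had signals of 29415, 26131 and 29102 (-0.093 ± 0.11). Its difference in array 2 was small beside that in array 1, and after quantile normalization it stood at 0.040 on array 1 and at 0 on array 2.

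Complex IV, cytochrome c oxidase, held the lowest and the highest difference of all measured members on array 1, *Cox6a1* and *Cox6a2*. Its 14 measured genes had medians of -0.14 on array 1 and 0.027 on array 2, and of -0.029 on array 1 and 0.0021 on array 2 after quantile normalization. Of these genes, 2 were higher (14.3%, all genes 30.6%) and 4 lower (28.6%, all genes 29.8%) in both arrays. Most widely expressed isoforms were low on array 1 and close to the uninephrectomy signal on array 2. *Cox6a1*, the liver-type subunit VIa, whose promoter window held the NRF1 and ETS motifs, had signals of 22225, 17609.5 and 22620.2, so that array 1 stood at 79.2% of the uninephrectomy array and array 2 at 102%; it was the other member at least 0.32 below on array 1, and stood at -0.15 there after quantile normalization. The second probe set of *Cox6a1* read 16243, 15014 and 16898. *Cox4i1*, a subunit through which ATP regulates the enzyme, had signals of 20732, 18033 and 21173 (-0.085 ± 0.16). *Cox6b1*, on the side of cytochrome c, had signals of 22513, 19394 and 23287 (-0.083 ± 0.19). In both, as in *Cox6a1*, array 1 alone was low. *Cox8a*, a small subunit in the membrane, had signals of 13806, 12889 and 14086 (-0.035 ± 0.090). *Ndufa4*, a subunit once assigned to complex I, had signals of 18028, 14978 and 18343 (-0.12 ± 0.21). In each of these 4, array 1 was again the low array, and array 2 reached at most 103% of the uninephrectomy signal. *Cox7a2*, the liver-type subunit VIIa, was lower in both arrays, with signals of 25888, 22086 and 25028 (-0.14 ± 0.13). *Cox5a*, *Cox5b* and *Cox6c* stood at -0.13 and -0.0086, -0.25 and 0.035 and -0.16 and 0.077, and *Cox7c*, read by a dim probe set, had signals of 391, 391 and 307. The other probe set of *Cox6c* read 14827, 17665 and 17015, above on both arrays, so that probe sets of this gene differ in direction on array 1.

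The heart and muscle isoforms of complex IV went the other way in array 1. *Cox6a2*, the heart-type subunit VIa, had signals of 257, 341 and 284 (0.25 ± 0.17), and *Cox7a1*, the heart-type subunit VIIa, which is also abundant in brown fat, of 933, 1205 and 984 (0.22 ± 0.20). They were the 2 measured members at least 0.32 above on array 1; on array 2 they stood at 0.13 and 0.074. *Cox8b*, the muscle isoform of subunit VIII, did not pass the filter and had signals of 5.8, 37.9 and 6.95, so that array 1 alone stood out. In the bands of signal of *Cox6a2* and *Cox7a1*, other genes had medians of 0.049 and -0.0089 on array 1. After quantile normalization *Cox6a2* stood at 0.31 and 0.15 and *Cox7a1* at 0.35 and 0.10. Neither passed limma (adjusted p = 0.9998 for both). Signals of heart muscle markers were high on the same arrays: 16 of 21 markers, counted before any filter on signal, lay above the uninephrectomy signal on both arrays and 1 below on both, against 33.6% and 29.0% of all genes without a filter, and their summed signals were 4825, 7086 and 6423. The largest signal in each of these sums was that of *Fabp3*, nearly level at 3597, 3647 and 3580. The heart list was not uniform. Some defining heart genes had signals under 10 on the uninephrectomy array and higher ones on both cardio-renal arrays, such as the cardiac myosin *Myh6* with signals of 9.93, 349 and 188, cardiac troponin I *Tnni3* with 1.97, 86.3 and 51.6 and myoglobin *Mb* with 3.81, 226 and 174. Cardiac actin *Actc1*, with 72.7, 545 and 400.0, and phospholamban *Pln*, with 156, 291 and 291, started from higher signals. The other cardiac myosin, *Myh7*, with 66.9, 12.6 and 54.1, was lower on both, and troponin C *Tnnc1*, with 239.8, 242 and 238, was nearly level. Of 11 skeletal muscle markers, 7 were above on both and 0 below, with sums of 1486, 1693 and 1636. Creatine kinase *Ckm* is on the heart list too, and *Pvalb* is on the distal convoluted tubule list. *Pvalb* gave 1188, 1295 and 1237 of these sums, and 2 of the 11 markers passed the filter on low signals. Of 9 adipocyte markers 6 were above on both arrays and 1 below, with sums of 26349, 25256 and 29287. *Lpl* gave 18581, 12344 and 18524 of the adipocyte sums. The part of such tissues in the signals of *Cox6a2*, *Cox7a1* and *Cox8b* was not tested.

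The remaining isoforms of complex IV are made mainly in other organs, and their probe sets were dim. *Cox4i2*, the lung isoform, had signals of 60.9, 64.2 and 56.7. The testis isoforms *Cox6b2*, *Cox7b2* and *Cox8c* had signals of 248, 236 and 210.2, of 25.5, 2.82 and 25.8 and of 353, 321 and 349.6. *Cox6b2* and *Cox8c* were lower on both cardio-renal arrays, and the second probe set of *Cox8c* was higher in both, at 138, 178 and 153. Kept apart from the complexes, *Cox7a2l* had signals of 4103, 4343 and 4185, slightly higher in both, and *Ndufa4l2*, induced by hypoxia in other settings, had 92.5, 94.6 and 74.6, below the filter.

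**Figure D4:**
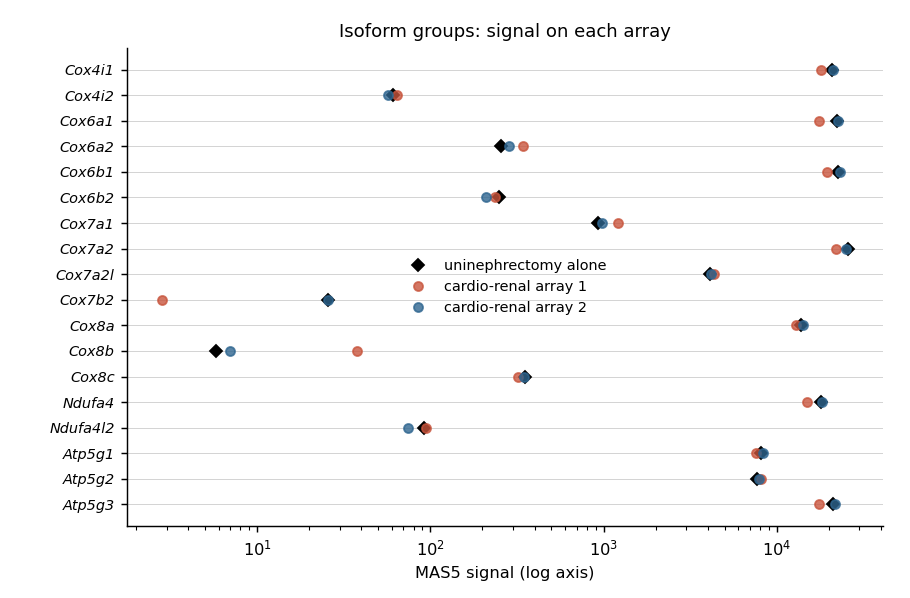
MAS5 signal (horizontal, log axis) of each gene of the isoform groups on the uninephrectomy array (black diamonds) and on cardio-renal arrays 1 (red) and 2 (blue); each point is 1 array, and signals can be compared within a row but not between rows. Array 1 lies to the left for *Cox6a1*, *Cox7a2*, *Ndufa4* and *Atp5g3* and to the right for *Cox6a2*, *Cox7a1* and *Cox8b*.

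In complex V, the ATP synthase, 16 of 17 genes were lower in array 1 (94.1%, all genes 48.4%). In array 2, 14 were higher and 3 lower (17.6% lower, all genes 50.7%). The medians were -0.10 on array 1 and 0.027 on array 2, and 0.031 on array 1 and 0.0053 on array 2 after quantile normalization. In the catalytic head, *Atp5b*, the beta subunit that makes ATP, had the lowest mean difference of the 3 complex V genes below on both arrays, with signals of 26268, 23362 and 24334 (-0.14 ± 0.042); after quantile normalization it stood at 0.031 and -0.13. Its partner *Atp5a1*, the alpha subunit, stood at -0.10 and 0.026, and the rotor genes *Atp5c1*, *Atp5d* and *Atp5e* at -0.10 and 0.051, -0.20 and 0.072 and -0.017 and 0.083. The signals of *Atp5b* on both cardio-renal arrays were below the uninephrectomy signal, and those of the other 4 lay on both sides of it. In the peripheral stalk, *Atp5pb* had signals of 23228, 22471 and 22652 (-0.042 ± 0.0082, and 0.14 and -0.072 on arrays 1 and 2 after quantile normalization), whereas *Atp5h*, *Atp5j* and *Atp5o* stood at -0.20 and 0.0088, -0.12 and 0.027 and -0.15 and 0.024. *Atp5g1*, *Atp5g2* and *Atp5g3* encode the same mature c subunit of the rotor ring with different import signals. *Atp5g2* was the complex V gene higher in both arrays, with signals of 7676, 8147 and 7903 (0.064 ± 0.031), *Atp5g1* had signals of 8140.4, 7581 and 8317 and *Atp5g3* of 21050.5, 17552 and 21645, both lower in array 1 and higher in array 2. Of the membrane subunits, *Atp5j2* had signals of 16338, 15118 and 16229 (-0.061 ± 0.072), and *Atp5k*, *Atp5l*, *Atp5md* and *Atp5mpl* stood between -0.12 and -0.069 in array 1 and between 0.0096 and 0.066 in array 2.

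Many members were read by several probe sets, each of which reads the same RNA again. Of 169 probe sets of members, 149 passed the filter; 115 of these were lower in array 1 (median -0.11) and 48 in array 2 (median 0.027). Among the 45 members with at least 2 such probe sets, 31 had a single direction across them in array 1, all lower in 25, and 19 had a single direction in array 2. With the mean of each gene's probe sets in place of the brightest, the members' median was -0.093 on array 1 and 0.029 on array 2. Among the members named by rule and on 1 side in both arrays, *Ndufv1*, *Ndufb8*, *Atp5j2* and *Cox8c* then had a mean difference of opposite sign. Other members were not followed in this way.

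Other genes of mitochondrial energy metabolism, none of them members, gave small medians too, and limma called 0 of them, with 1 at an unadjusted p under 0.05. Of all genes, 30.6% lay above and 29.8% below the uninephrectomy signal on both arrays. In the 3 lists that follow, in order, 16.7%, 40.5% and 31.8% lay above and 27.8%, 21.4% and 45.5% below on both. In the citric acid cycle and pyruvate dehydrogenase list, 3 of 18 measured genes lay above and 5 below the uninephrectomy signal on both arrays, with medians of -0.073 and 0.012 in arrays 1 and 2. *Idh3a*, a subunit of the NAD-linked isocitrate dehydrogenase, had signals of 7792, 7242 and 7342 (-0.10 ± 0.014) and *Idh2*, the NADP-linked enzyme, of 6181, 6542 and 6707 (0.10 ± 0.025). Among assembly factors of the respiratory complexes, 17 of 42 measured genes lay above and 9 below the uninephrectomy signal on both arrays, with medians of 0.0082 and 0.035; *Foxred1*, needed for complex I, had signals of 392, 472 and 505 (0.30 ± 0.065) and *Sdhaf1*, needed for complex II, of 1397, 1092 and 1215 (-0.27 ± 0.11). For regulators of mitochondrial biogenesis, 7 of 22 measured genes lay above and 10 below the uninephrectomy signal on both arrays, with medians of -0.022 and -0.057. *Ppargc1a*, the coactivator that drives respiratory gene transcription, had signals of 3219, 3172 and 2917, and *Tfam*, which packs and transcribes mitochondrial DNA, of 1748, 1798 and 1689.7; both were named after their values were seen. The genes of this list named by rule were *Ssbp1*, a mitochondrial DNA-binding protein, with signals of 5408, 4739.9 and 4491 (-0.23 ± 0.055), and the nuclear receptor *Esrrb*, with 322, 365 and 363 (0.16 ± 0.0029).

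For carriers that feed electrons to ubiquinone and for ubiquinone synthesis, 4 of 18 measured genes lay above and 4 below the uninephrectomy signal on both arrays. That is 22.2% each, against 30.6% above and 29.8% below of all genes. The medians were -0.073 and 0.034. *Coq6*, a hydroxylase of ubiquinone synthesis, had signals of 485, 312 and 319 (-0.58 ± 0.022), lower on both cardio-renal arrays by much the same amount, and *Coq8a*, a kinase-like protein of that pathway, of 1264, 1656 and 1511 (0.32 ± 0.092), higher in both. Neither passed limma's adjusted p. Among ATP and phosphate carriers, uncoupling proteins and porins, 3 of 12 measured genes (25%) lay above and 2 (16.7%) below the uninephrectomy signal on both arrays. The medians were 0.0046 and 0.017 in arrays 1 and 2. *Slc25a10*, the dicarboxylate carrier, had signals of 3490.1, 3986 and 3922 (0.18 ± 0.016). *Slc25a14*, an uncoupling protein, had signals of 157, 143 and 53.4, at -0.12 on array 1 and -1.18 on array 2, so that array 2 alone lay far below. The filter had removed 5 genes of this list.

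Markers of kidney cells were present, as the tissue label says: 14 of 15 proximal tubule markers and 7 of 8 loop of Henle markers passed the filter. The remaining marker of each list had no probe set among those used. In whole kidney RNA, fewer cells of a type and less RNA per cell cannot be told apart. The proximal tubule markers, from the segment rich in mitochondria, had medians of -0.15 and 0.058 in arrays 1 and 2 and summed signals of 205116, 193655 and 216716. Of these 14 markers, 7 were low on array 1 and high on array 2 (50%, all genes 18.6%). On both arrays 4 were high (28.6%, all genes 30.6%) and 2 low (14.3%, all genes 29.8%). *Pck1*, with signals of 6364, 12849.6 and 10155, lay furthest above on array 1. *Kap*, the brightest of the 14 markers, is on the male-biased list too. Loop of Henle markers had medians of -0.017 and 0.0053, distal convoluted tubule markers of 0.046 and 0.0082, collecting duct markers of 0.092 and -0.051 and podocyte markers of 0.10 and -0.034. Of other cell types, macrophage markers had medians of -0.085 and -0.15, the 5 measured adipocyte markers 0.15 and 0.33, the 2 adrenal markers 0.077 and 0.34 and the 2 erythroid markers 0.24 and 0.52; no lymphocyte marker passed the filter. The 4 female-biased kidney genes had medians of 1.44 and 0.21, and 1 of them, *Slc22a7*, went the other way, with signals of 3985, 459.6 and 3124. The part of cell composition and of the sex-biased programme in the subunit genes' signals was not tested.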

How the data were processed

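Per the labels, biotinylated cRNA was made with a 3′ in vitro transcription kit from 250 ng of total RNA of each of 3 kidney samples and hybridised to 1 Affymetrix array each. The deposited intensities are MAS5 signals, 1 per probe set, made by the authors with MAS5 per the submitters' processing notes (version not given in the sources used here); their mean trimmed by 2% at each end was 500.0 on every array, and they were used as scaled. Because MAS5 takes mismatch signals off, its low values are noisy; detection calls were not used. A 3′ kit reads transcript ends, and the sources do not give a genome build.

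Probe sets with 1 symbol in the platform annotation (34958 of 45101) were used, and a gene was read by whichever of its probe sets was brightest on average; 9 probe sets of several symbols that include a matching one were not used. Symbols were updated by Entrez ID against RefSeq (GRCm38.p6). The offset 28.8 is the 25th percentile of the signals (median of the arrays); 11147 genes with a mean log2 value of at least 7.01, the median of all probe sets, were tested with limma 3.58.1 in R 4.3.3 (lmFit, eBayes with a trend), two-sided, and adjusted p-values (Benjamini-Hochberg) under 0.05 were calls. Only the 2 cardio-renal arrays inform the spread (1 residual degree of freedom), and the lone uninephrectomy array is assumed to vary like them; the p-values reflect no more than how these samples spread, which may be technical. The limma fit was also run on simulated data in which all 3 arrays had the same independent noise. That run could not check whether the uninephrectomy array varies like the others. Counts of genes on 1 side of the uninephrectomy array on both cardio-renal arrays carry no test. Members, lists and tests were chosen with earlier results of these data known. Named with values by rule were complex II, *Cyc1*, *Cycs*, the isoform groups, up to 3 genes furthest above and below per complex, the 4 members furthest apart between the cardio-renal arrays, and up to 2 genes per related list; other values complete a complex. Alternatives covered the offset, normalization, centring, filter, probe sets, the trend and leaving out each cardio-renal array.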

Additional observations from a re-analysis of the deposited data

How the results depend on the processing

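Limma called 0 genes under every alternative run, with between 128 and 672 genes at an unadjusted p under 0.05 and 0 members at that level. The count of members higher on both cardio-renal arrays, 11 as reported, was 17 after quantile and 18 after cyclic loess normalization. The count lower in both, 24, was 14 when arrays were centred on their medians. The shares of all genes under these settings are not given here, so the changed counts cannot be set beside them. Leaving out a cardio-renal array leaves 1 array against 1 and no test: the counts then ranged from 13 to 52 higher and from 26 to 65 lower, the fewest lower being without array 1, and the median of all members from -0.12 to 0.027. By complex that range was -0.11 to 0.0089 for I, -0.015 to 0.11 for II, -0.13 to 0.032 for III, -0.14 to 0.027 for IV and -0.10 to 0.027 for V. With the brightest probe sets on the deposited scale the sign of each of these medians thus depends on the cardio-renal array used, but complex II lay above 0 on both arrays with the mean of probe sets (0.11 and 0.13), without shared-sequence probe sets (0.019 and 0.072) and after quantile (0.044 and 0.077) and cyclic loess normalization (0.059 and 0.075), and complex I below 0 on both after quantile (-0.026 and -0.016) and cyclic loess normalization (-0.013 and -0.015). After quantile normalization complex III lay below (-0.0030 and -0.010) and complex V above 0 (0.031 and 0.0053) on both, and after cyclic loess complexes IV (-0.091 and -0.0087) and V (-0.013 and -0.0070) below. The median of complex III, -0.058, was 0.0065 after quantile normalization. Among the named members on 1 side in both arrays, the mean difference changed sign after quantile normalization for *Atp5pb* (0.032), *Cycs* (0.020) and *Uqcrh* (0.0065). Of the members not named by rule, *Cox5a* (0.0064) and *Ndufa3* (0.0066) changed sign there too. With the mean of probe sets the sign changed for the named *Atp5j2* (0.065), *Cox8c* (0.074), *Ndufb8* (0.015) and *Ndufv1* (-0.054). Without probe sets that can share sequence with other transcripts it changed for the named *Ndufb8* (0.16) and *Ndufv1* (-0.056). Members not named by rule were not followed under these probe set settings. The cause of the sign changes was not tested. The mean difference stayed within the SD of the arrays in 28 of 34 named members after quantile and in 29 after cyclic loess normalization. Other offsets and filters and centring turned no mean difference of these members; the upper quartile filter left out 4 of 34 and the leaving out of shared probe sets 6. No paired analysis was possible because the labels give no replicate numbers and the groups hold 1 and 2 samples. With 1 control array, differences of the size seen here, mostly under 0.32 on the log2 scale, cannot be separated from differences between single kidneys or hybridisations.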
